A study of Mus musculus with 18 samples.

Results

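The hormone angiotensin II (AngII) stimulates the enzymes that produce reactive oxygen species in heart and vessel wall, and other enzymes remove these species again. The 9 genes of that chemistry followed here in the left ventricle (LV) were *Cybb*, *Cyba*, *Nox4* and *Ncf1* of the NADPH oxidases, and *Sod1*, *Sod2*, *Cat*, *Gpx1* and *Gpx3* of the antioxidant enzymes. They were chosen by symbol, and all 9 were among the 51435 genes of the deposited tables. LV poly(A) RNA had been sequenced from 18 mice on a C57BL/6J background, 9 WT and 9 WWP2Mut/Mut. The mutants were homozygous for a deletion of 4 bases, made by CRISPR/Cas9 in the second exon of *Wwp2*, the gene of an E3 ubiquitin ligase. The deletion is carried by every cell of the animal, the mice were male littermates, and the study describes the C-terminal WWP2 isoform as unaffected in the mutant heart. Both groups received AngII at 500 ng/kg/min for 28 days from osmotic pumps implanted at 8 weeks of age. No library came from an untreated mouse, so the values describe the infused ventricle and the effect of genotype in it, not the effect of AngII.

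An NADPH oxidase moves electrons from NADPH across a membrane onto oxygen, giving superoxide or hydrogen peroxide. *Cybb* encodes NOX2, the catalytic subunit of the phagocyte enzyme, and *Cyba* encodes p22phox, the membrane partner on which both NOX2 and NOX4 depend. *Ncf1* encodes p47phox, a cytosolic organizer that assembles NOX2 on stimulation, for which AngII is a classical trigger in vessels and heart. *Nox4* encodes an oxidase that is active without such assembly and releases mainly hydrogen peroxide. Superoxide is converted to hydrogen peroxide by SOD1 in the cytosol and by SOD2 in mitochondria. Hydrogen peroxide is then broken down by catalase in peroxisomes, by the intracellular peroxidase GPX1 and by the secreted peroxidase GPX3.

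GPX1 and GPX3 are selenoproteins, in which a TGA codon that would otherwise stop translation is read as selenocysteine, the residue of the active site. These codons set the peroxidases apart from the other 7 genes. In the GENCODE M21 annotation of GRCm38 the *Gpx1* codon was codon 47, in exon 1 of 2, at chr9:108339451-108339453 on the plus strand. The *Gpx3* codon was codon 73, in exon 2 of 5, at chr11:54907256-54907258, also on the plus strand. The coding sequences are given from 21 bases before to 21 bases after the codon, 5′ to 3′, with the selenocysteine TGA in capitals.
Gpx1: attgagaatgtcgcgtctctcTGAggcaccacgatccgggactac
Gpx3: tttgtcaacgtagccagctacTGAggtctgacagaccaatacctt

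The promoters of *Sod1* and *Cyba* are shown because these genes rose and fell together over the mice (Pearson r 0.91). That of *Cybb* is shown because its product works as a pair with that of *Cyba*, while their RNA levels had an r of −0.15. After a linear model with the gene body coverage of the library, described below, these values were 0.62 and 0.45. Each promoter is the 250 bases before the RefSeq start site (GRCm38.p6), read along the gene, with matches to the GC box GGGCGG in capitals on either strand. *Sod1* lies on the plus strand (chr16:90220512-90220761), *Cyba* on the minus strand (chr8:122432941-122433190) and *Cybb* on the minus strand (chrX:9469325-9469574).
Sod1: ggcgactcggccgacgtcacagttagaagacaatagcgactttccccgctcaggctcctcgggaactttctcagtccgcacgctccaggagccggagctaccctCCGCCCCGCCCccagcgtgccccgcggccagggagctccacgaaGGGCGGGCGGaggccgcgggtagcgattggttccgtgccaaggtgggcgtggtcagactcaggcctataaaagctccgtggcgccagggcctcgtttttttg
Cyba: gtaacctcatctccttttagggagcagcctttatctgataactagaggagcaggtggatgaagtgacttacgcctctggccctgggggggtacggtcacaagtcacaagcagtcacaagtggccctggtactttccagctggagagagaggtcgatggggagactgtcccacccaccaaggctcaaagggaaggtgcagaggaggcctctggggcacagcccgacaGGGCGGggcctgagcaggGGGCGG
Cybb: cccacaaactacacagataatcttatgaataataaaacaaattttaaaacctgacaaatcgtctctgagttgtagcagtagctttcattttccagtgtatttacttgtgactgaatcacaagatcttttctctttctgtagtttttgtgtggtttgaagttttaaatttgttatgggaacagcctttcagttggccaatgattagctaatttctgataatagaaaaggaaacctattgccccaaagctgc

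RefSeq windows were found for all 9 genes. The GC box was present in 7 of them (*Cyba*, *Nox4*, *Ncf1*, *Sod1*, *Sod2*, *Cat* and *Gpx3*), against 32.7% of 32851 promoter windows of the same length. *Sod1* held 4 matches, which overlap in pairs, *Sod2* held 4, *Cyba* 2 and *Cybb* and *Gpx1* 0. *Gpx1* also moved with *Cyba* over the mice (r 0.83, and 0.88 after gene body coverage). Whether these matches have a part in the RNA levels was not tested. The CCAAT box (CCAAT, either strand) was in 5 of the 9 windows and in 33.8% of all windows. The core of the antioxidant response element, searched as TGACNNNGC on either strand, was in the *Sod1* window alone among the 9 and in 10.2% of all windows. TATAAA was likewise in the *Sod1* window alone, and in 12.4% of all. These are matches of letters and not sites of binding.

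The libraries held between 24566994 and 37451087 expected counts and were spread over 4 sequencing lanes, each with mice of both genotypes. *Wwp2*, the targeted gene, had between 3.83 and 6.01 TPM (transcripts scaled by length and depth, median 5.10) in WT mice and between 1.19 and 3.00 TPM (median 1.58) in WWP2Mut/Mut mice. It was the 1 gene of 24804 tested (0.00403%) called at a false discovery rate (FDR) under 0.05 by edgeR's quasi-likelihood test (log2 fold change −1.40, SE 0.16, adjusted p = 0.00113). The summed level of 10 cardiomyocyte markers was 39450 to 52370 TPM over all mice, with medians of 48590 TPM in WT and 45240 TPM in WWP2Mut/Mut mice (two-sided exact permutation test p = 0.04175, unadjusted over the 13 marker lists). None of these 10 genes was called by edgeR. By limma on log2(TPM + 1) the median log2 fold change was −0.13 over expressed genes and −0.04 over all genes, and the summed TPM did not separate the genotypes (permutation p = 0.5042). Macrophage and leukocyte markers were present in all mice (14 genes, 302 to 517 TPM), and the 8 neutrophil markers summed to 2.60 to 32.91 TPM, mostly *S100a9* (mean 5.13 TPM) and *S100a8* (2.53 TPM), with the other 6 genes, *Ly6g* among them, at means under 1 TPM. Liver markers (20 genes, 30.1 to 555 TPM) were highest in 1 WT mouse, 45-1, with medians of 167 TPM in WT and 54.5 TPM in WWP2Mut/Mut mice (permutation p = 0.04401, also unadjusted). The table of samples lists an RNA concentration of 1.68 ng/µl for WT mouse 43-3 and of 88.6 to 320.9 ng/µl for the others. It also gives a fraction for each library under the heading genebody_bottomhalf, without a definition, which is called gene body coverage here. That fraction was 0.0288 to 0.0540 in WT and 0.0313 to 0.0526 in WWP2Mut/Mut mice (permutation p = 0.7204). Bulk RNA cannot tell fewer cells of a type from less RNA per cell.

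The superoxide dismutase and peroxidase RNAs were abundant and the catalytic oxidase RNAs scarce in the infused ventricle of both genotypes. On the TPM scale, which is per transcript length, the order of the mean levels over 18 mice was *Sod1* (394 TPM), *Gpx3* (113), *Gpx1* (110), *Sod2* (92.4), *Cat* (58.1), *Cyba* (43.8), *Ncf1* (1.65), *Cybb* (1.19) and *Nox4* (0.287). *Sod1* ranked 202nd of 26787 detected genes, and *Nox4* had a higher mean than 47.6% of them. *Sod1* exceeded *Gpx3* in 18 of 18 mice, without overlap of their ranges, and *Cyba* exceeded *Ncf1* in 18 of 18, also without overlap. *Gpx3* was above *Gpx1* in 8 of 18 mice, so these neighbours did not differ beyond their spread. *Gpx1* exceeded *Sod2* in 15 mice, *Sod2* exceeded *Cat* in 18, *Cat* exceeded *Cyba* in 12, *Ncf1* exceeded *Cybb* in 16 and *Cybb* exceeded *Nox4* in 18.

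**Figure D1:**
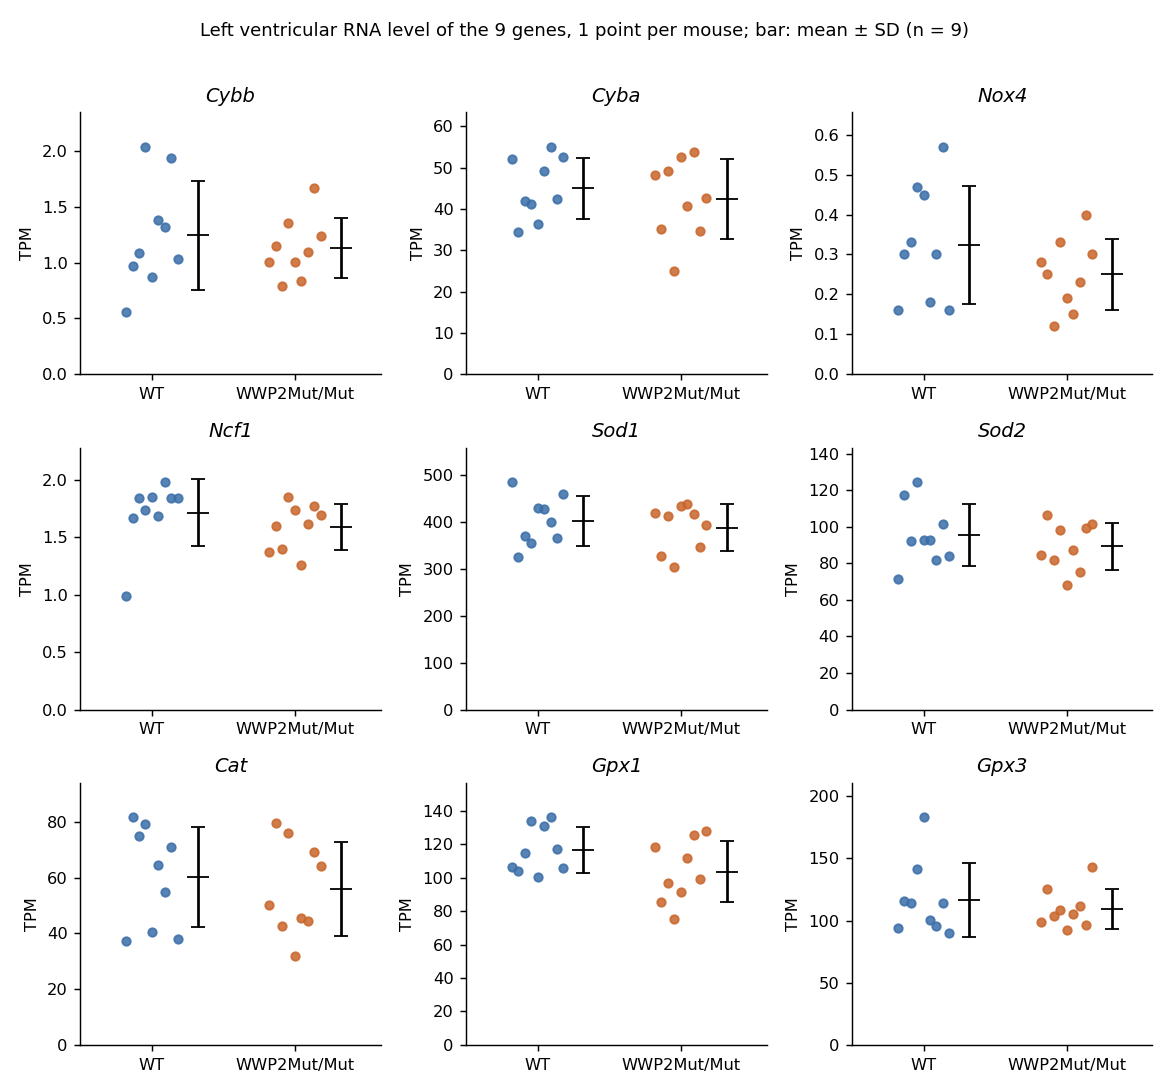
TPM of each gene (vertical axis, from 0) in WT (blue) and WWP2Mut/Mut mice (orange), 1 point per mouse, with the mean ± SD (n = 9) beside each group. The ranges of the genotypes overlap for every gene, WT 16-1 lies below the other WT mice for *Ncf1* (0.99 TPM) and WT 45-1 is the highest mouse for *Gpx3* (183 TPM).

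*Cybb* ran from 0.56 to 2.04 TPM in WT mice (median 1.09) and from 0.79 to 1.67 TPM in WWP2Mut/Mut mice (median 1.10), with 110 to 380 counts per library. All 9 mutant mice lay within the WT range. The mean was 1.24 ± 0.49 TPM (SD, n = 9) in WT and 1.13 ± 0.27 TPM (SD, n = 9) in WWP2Mut/Mut mice (two-sided exact permutation test, p = 0.5516). In edgeR, with lane and RNA concentration as covariates, the log2 fold change (mutant over WT throughout) was 0.00 with a 95% interval of −0.41 to 0.41. With the summed liver markers as a further covariate it was −0.26 (edgeR adjusted p = 0.8183).

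*Cyba* was 34.55 to 55.10 TPM in WT mice (median 42.54) and 24.92 to 53.80 TPM in WWP2Mut/Mut mice (median 42.61). The lowest mouse was WWP2Mut/Mut 33-1, and 8 of 9 mutants lay within the WT range. The log2 fold change was 0.16 with an interval of −0.31 to 0.64, and the difference in mean TPM was −2.65 (permutation p = 0.5192). *Cyba* shares chromosome 8 with *Wwp2* with 14866181 bases between the genes (chr8:122424776-122432930 against chr8:107436365-107558595, GRCm38).

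*Ncf1* was 0.99 to 1.98 TPM in WT mice (median 1.84) and 1.26 to 1.85 TPM in WWP2Mut/Mut mice (median 1.61), all 9 of them inside the WT range. The edgeR log2 fold change was 0.10 (−0.18 to 0.39), while mean TPM was lower in the mutants by 0.127 (permutation p = 0.3087). That range rested on WT mouse 16-1. Without it the difference in mean TPM was −0.217 (permutation p = 0.01633, unadjusted), the only TPM comparison of the 9 genes under 0.05 when any 1 mouse was left out, and the edgeR log2 fold change stayed positive at 0.02. Exons of *Ncf1* (chr5:134220053-134229625, minus strand) overlap exons of *Gtf2ird2* on the opposite strand. The libraries were directional, but the strand setting of the counting is not given in the sources used here, so reads from the shared bases may not be told apart.

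*Nox4* was the scarcest of the genes, with 21 to 67 counts per library. It was 0.16 to 0.57 TPM in WT mice (median 0.30) and 0.12 to 0.40 TPM in WWP2Mut/Mut mice (median 0.25), and 7 of 9 mutants lay within the WT range. Its log2 fold change was the furthest from 0 of the 9, at −0.40 (SE 0.20, −0.82 to 0.01), and did not pass the threshold (edgeR adjusted p = 1.0). It was −0.22 with lane alone as a covariate and −0.16 with none. Leaving out 1 mouse at a time gave −0.53 to −0.31, and the value furthest from 0 came without WT 16-1 (edgeR adjusted p = 0.9024). With the mouse of the low listed concentration, WT 43-3, left out it was −0.40.

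*Sod1* was 325 to 484 TPM in WT mice (median 399) and 303 to 438 TPM in WWP2Mut/Mut mice (median 412). The highest of all was WT 16-1 and the lowest WWP2Mut/Mut 33-1, and 8 of 9 mutants lay within the WT range. Its log2 fold change was 0.14 (−0.24 to 0.53). *Sod2* was 71.6 to 124.6 TPM in WT mice (median 92.5) and 68.4 to 106.7 TPM in WWP2Mut/Mut mice (median 87.5), again with 8 of 9 mutants inside the WT range. Its log2 fold change, 0.07, had the narrowest interval of the 9 genes (−0.13 to 0.27). *Sod1* made up 78.9 ± 4.8% of the summed TPM of the 3 dismutase genes in WT and 79.5 ± 4.2% in WWP2Mut/Mut mice (SD, n = 9 each, exact permutation p = 0.781), and *Sod2* 19.1 ± 4.4% and 18.6 ± 3.9% (SD, n = 9 each, exact permutation p = 0.8232). The extracellular dismutase gene *Sod3* was at 9.75 ± 1.75 TPM (SD, n = 18).

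*Cat* ranged widely, from 37.25 to 81.59 TPM in WT mice (median 64.42) and from 31.75 to 79.60 TPM in WWP2Mut/Mut mice (median 50.06). Mice of both genotypes fell at either end, and 8 of 9 mutants lay within the WT range. Its coefficient of variation over the 18 mice was 29.3%, against 12.7% for *Sod1*. The log2 fold change was −0.03 (−0.41 to 0.34).

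*Gpx1* was 100.4 to 136.1 TPM in WT mice (median 114.5) and 75.5 to 127.9 TPM in WWP2Mut/Mut mice (median 99.3), and only 4 of 9 mutants lay within the WT range, the other 5 being below it. The mean was 117 ± 14 TPM (SD, n = 9) in WT and 104 ± 18 TPM (SD, n = 9) in mutants, the smallest p of the TPM comparisons (exact permutation p = 0.1111). This was not seen in the counts, where the log2 fold change was 0.00 (−0.35 to 0.35). On TMM-scaled counts (CPM) the difference was −1.78 CPM (exact permutation p = 0.8591).

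*Gpx3* was 89.8 to 183.1 TPM in WT mice (median 113.8) and 92.2 to 142.8 TPM in WWP2Mut/Mut mice (median 105.4), with all 9 mutants inside the WT range. WT 45-1, the mouse with the highest liver markers, was the highest at 183 TPM, and the next WT mouse was 43-3 at 141 TPM. Over the 18 mice *Gpx3* had a Pearson r of 0.25 with the liver markers (rho 0.11), and −0.21 without the 2 farthest mice. The log2 fold change was 0.10 (−0.15 to 0.35) with all mice and 0.21 without WT 45-1 (edgeR adjusted p = 1). With the summed liver markers as a further covariate it was 0.30 (edgeR adjusted p = 0.8183). Among the 5 glutathione peroxidase genes above 1 TPM, *Gpx4*, whose product reduces lipid peroxides, was the most abundant at 881 ± 153 TPM (SD, n = 18). *Gpx1* accounted for 9.998 ± 0.86% of their sum in WT and 9.53 ± 0.91% in WWP2Mut/Mut mice (SD, n = 9 each, exact permutation p = 0.2784).

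None of the 9 genes was called by edgeR at an FDR under 0.05, against 0.00403% of all genes, and 0 had an unadjusted p under 0.05, against 3.66% of all genes. DESeq2 called 0 as well, against 0.0161% of all genes, with 1 of 9 (*Nox4*) under an unadjusted p of 0.05, against 2.47% of all genes. Over the 30 alternative fits 0 to 1 of the 9 genes had an unadjusted p under 0.05. This was *Nox4* when 1 mouse was dropped (4 of 18 fits), with DESeq2, with edgeR's expression filter and by limma on log2(TPM + 1), and *Gpx3* with liver markers as a covariate. The log2 fold changes were above 0 for 5 genes and below 0 for 4, with a median of 0.07, and the median over all genes tested was −0.01. The intervals of *Cybb*, *Ncf1*, *Sod2*, *Cat*, *Gpx1* and *Gpx3* reached no further than 0.41 from 0 on the log2 scale, and those of *Nox4*, *Cyba* and *Sod1* reached further.

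**Figure D2:**
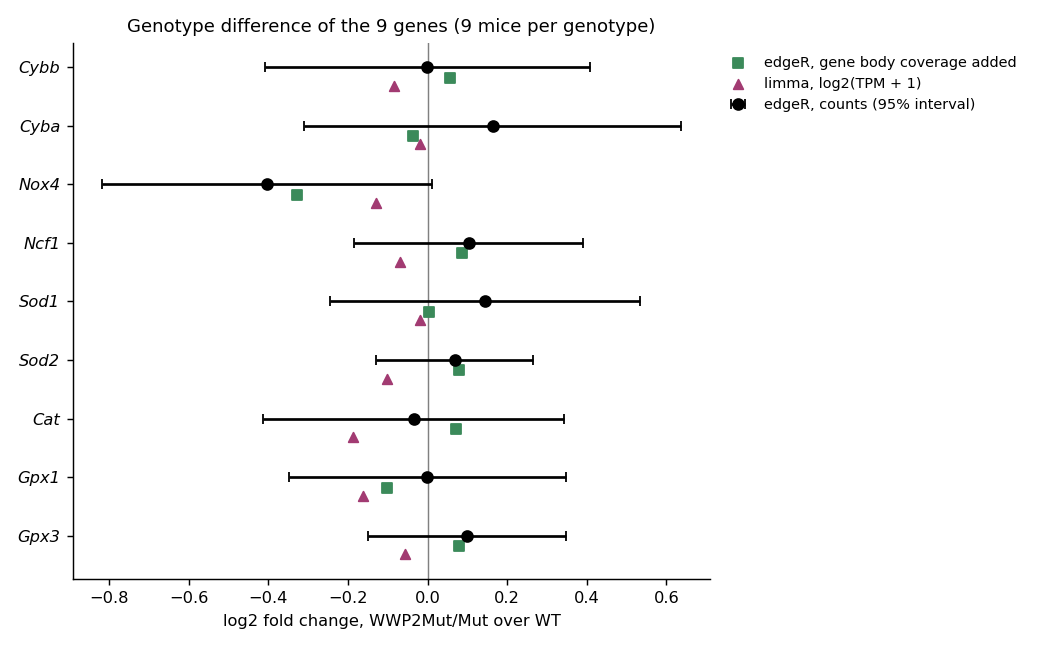
Log2 fold change of each gene, WWP2Mut/Mut over WT (horizontal axis), from edgeR with its 95% interval (black), from edgeR with gene body coverage added as a covariate (green squares) and from limma on log2(TPM + 1) (triangles). Every interval includes 0, and the TPM estimates of all 9 genes lie below 0.

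The direction depended on the scale. By limma on log2(TPM + 1), all 9 fold changes were below 0, from −0.19 for *Cat* to −0.02 for *Sod1* and *Cyba*, and none passed (smallest adjusted p = 0.8065). The median over all genes with a mean of at least 1 CPM was −0.13 on that scale, a shift of −0.12 from the count scale. Relative to that median, 6 of the 9 genes lay above it and 3 (*Nox4*, *Cat* and *Gpx1*) below. *Nox4*, with a mean of 0.287 TPM, was at −0.13 by log2(TPM + 1). By log2(TPM + 0.1) it was at −0.43, where the median was −0.17. With gene body coverage as a covariate the count-based fold changes of *Cyba* and *Sod1* were −0.04 and 0.00, and those of *Cat* and *Gpx1* 0.07 and −0.10.

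Between lanes, no gene kept 1 direction in all 4. The mutant mean was above the WT mean in 2 of 4 lanes for *Cybb*, *Cyba*, *Sod1* and *Gpx3* and in 1 of 4 for *Nox4*, *Ncf1*, *Sod2*, *Cat* and *Gpx1*. A lane held 2 or 3 mice of a genotype. The balance of subunits was also compared. *Cybb* made up 79.1 ± 6.6% of the summed TPM of the 2 catalytic subunit genes *Cybb* and *Nox4* in WT and 82.3 ± 2.6% in WWP2Mut/Mut mice (SD, n = 9 each, exact permutation p = 0.1997). *Cyba* stood at 33.3 ± 16.9 times their sum in WT and 33.5 ± 13.2 times in WWP2Mut/Mut mice (SD, n = 9 each, exact permutation p = 0.9837). Over the 6 such ratios compared, the smallest Benjamini-Hochberg p was 0.8352.

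The wider redox system was read from 92 further genes in 9 lists. Of these, 88 were tested and 0 were called in either direction by edgeR or by DESeq2, against 0.00403% and 0.0161% of all genes. The 4 not tested, *Nox3*, *Gpx2*, *Gpx5* and *Gpx6*, were at or near 0. Log2 fold changes were above 0 for 44 genes and below 0 for 44, with a median of 0.01. Unadjusted p values under 0.05 were found for 2 genes, both lower in WWP2Mut/Mut mice (2.57% of all genes were under 0.05 and lower). DESeq2 likewise gave 2.

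Among the other oxidase genes, the small GTPase gene *Rac1* (78.8 ± 19.1 TPM, SD, n = 18) and the *Poldip2* gene (54.8 ± 11.5 TPM) were abundant, and the phagocyte subunit gene *Ncf4* (1.61 ± 0.64 TPM) was near the level of *Ncf1*. *Rac2*, the GTPase of the phagocyte enzyme, had a log2 fold change of 0.26 (SE 0.15, 95% interval −0.06 to 0.58). *Nox1* was listed at 0 in 16 of 18 mice and at 0.03 TPM at most, so it has no meaningful fold change. Of the 13 tested genes of this list, 6 lay above 0.

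The lowest p of the redox lists belonged to *Gsta3*, a glutathione transferase gene controlled by NRF2, at a log2 fold change of −0.63 (95% interval −1.10 to −0.17, edgeR adjusted p = 0.9913). It was 5.91 ± 3.42 TPM (SD, n = 9) in WT and 3.93 ± 0.86 TPM (SD, n = 9) in WWP2Mut/Mut mice, and the value of 14.61 TPM came from WT 45-1. Without that mouse the log2 fold change was −0.40 (edgeR adjusted p = 1), and with the liver markers as a covariate it was −0.11. *Txnip*, whose product binds and inhibits thioredoxin, had a log2 fold change of −0.44 (95% interval −0.76 to −0.11, edgeR adjusted p = 0.9913), which was −0.13 with lane alone and −0.04 without covariates. *Gclc* (−0.26), *Selenop* (−0.19) and *Mafg* (−0.17) were the other 3 genes below 0 with the smallest p, and *Prdx4* (0.25), *Pxdn* (0.21) and *Mt1* (0.27) stood next to *Rac2* above 0. None of these 6 was under an unadjusted p of 0.05 in edgeR (the smallest was 0.1131, for *Gclc*). Of the NRF2 pathway genes, 7 of 13 lay above 0, and *Nqo1*, which lies 33159 bases from *Wwp2* on chromosome 8, had a log2 fold change of −0.08.

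**Figure D3:**
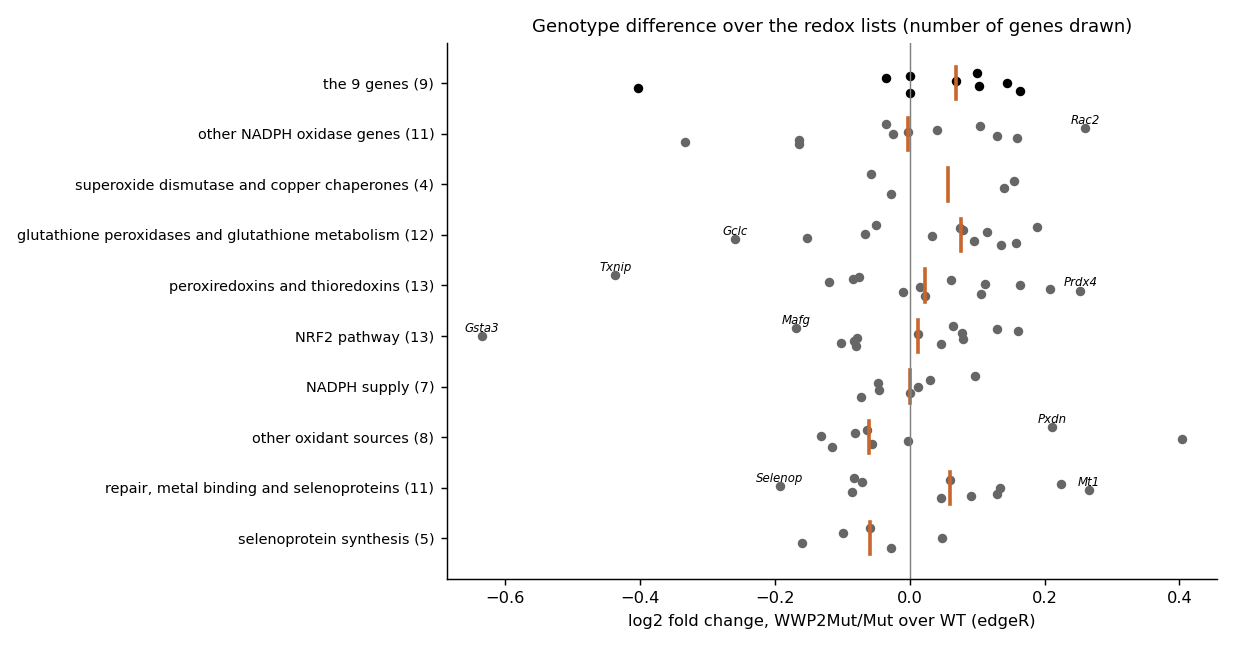
Log2 fold change, WWP2Mut/Mut over WT (horizontal axis), of the 9 genes and of the 84 tested redox genes with a mean of at least 0.01 TPM, by list, 1 point per gene, with the median of the points drawn as an orange bar. The medians lie close to 0, and the named points are those with the smallest p in each direction, of which *Gsta3* (−0.63) and *Txnip* (−0.44) lie furthest out.

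For all 9 genes the SD of TPM within each genotype exceeded the difference between the genotype means, and for several the gene body coverage of the library moved with the variation between mice. Over the 18 mice, in log2(CPM + 1), *Sod1* had a Pearson r of 0.94 with gene body coverage (Spearman rho 0.95), and *Cyba* one of 0.85 (rho 0.83). *Cat* went the other way with an r of −0.75 (rho −0.78), *Nox4* had −0.54 and *Cybb* −0.42. For *Gpx1* r was 0.51, for *Ncf1* 0.32, for *Gpx3* 0.21 and for *Sod2* −0.32. Leaving out the 2 mice with the most extreme coverage gave 0.93 for *Sod1*, 0.81 for *Cyba* and −0.69 for *Cat*. Within WT and WWP2Mut/Mut mice separately r was 0.97 and 0.90 for *Sod1*, 0.84 and 0.87 for *Cyba*, and −0.63 and −0.91 for *Cat*. After removal of lane means it was 0.95, 0.89 and −0.75.

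Among 13040 genes with a mean of at least 1 CPM, the median absolute r with coverage was 0.58. An absolute r as large as that of *Sod1* was found in 1.6% of them, as that of *Cyba* in 12.8% and as that of *Cat* in 30.0%. Short transcripts tended to be positive. Genes with a principal transcript under 1000 bases had a median r of 0.71 (699 genes), and those of 4000 bases or more a median of −0.48 (4099 genes). The principal transcripts of *Sod1* and *Cyba* are 641 and 744 bases long, and those of *Cybb* and *Sod2* 4752 and 5861 bases. On log2(TPM + 1) the r of *Cat* with coverage was −0.95 and that of *Sod2* −0.92, and the signs of *Gpx1* (−0.02), *Ncf1* (−0.51) and *Gpx3* (−0.50) changed. These correlations are descriptions over mice that share libraries' depth and quality, and were not tested.

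**Figure D4:**
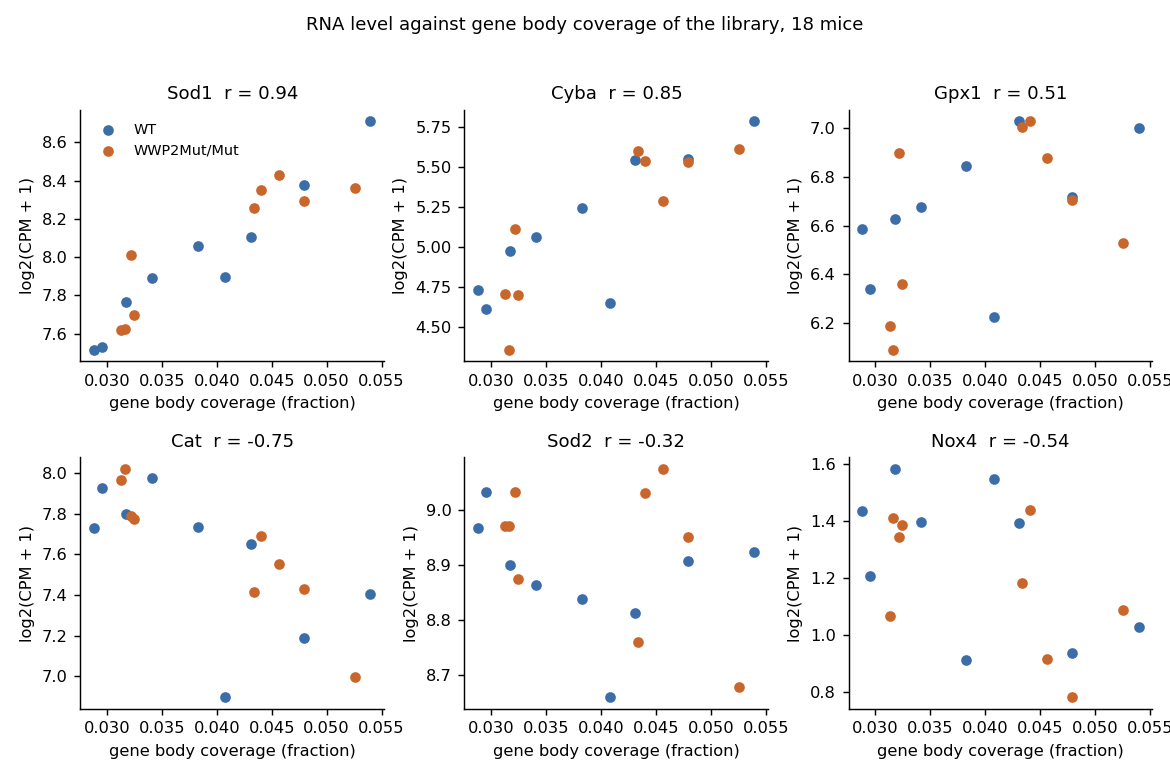
Log2(CPM + 1) of 6 of the genes (vertical axis) against the gene body coverage fraction of the library (horizontal axis), 1 point per mouse, WT in blue and WWP2Mut/Mut in orange, with Pearson r above each panel. *Sod1* and *Cyba* rise along the axis and *Cat* falls, in mice of both genotypes.

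Some of the genes moved together. Of 36 pairs, 3 had an absolute r above 0.7 over the 18 mice, namely *Cyba* with *Sod1* (r 0.91, rho 0.86, 0.90 without the 2 farthest mice), *Cyba* with *Gpx1* (0.83, rho 0.76, 0.77) and *Sod1* with *Gpx1* (0.71, rho 0.67, 0.72). Their principal transcripts are 641 to 1072 bases long. After a linear model with gene body coverage r was 0.62, 0.88 and 0.78 for the same pairs, and after genotype, lane and RNA concentration 0.92, 0.90 and 0.81. On log2(TPM + 1) the same pairs had 0.79, 0.59 and 0.36. The mitochondrial and peroxisomal enzymes, *Sod2* and *Cat*, had an r of 0.63, but 0.22 without the 2 mice farthest from the median of *Sod2*. *Cyba* and *Cybb*, whose products form 1 complex, had an r of −0.15 (rho −0.12), which was 0.45 after coverage, and *Cybb* and *Ncf1* one of 0.18. *Gpx3* moved apart from *Gpx1* (r 0.13) and opposite to *Cybb* (r −0.53). That value was −0.31 without the 2 farthest mice, −0.82 after genotype, lane and RNA concentration and 0.15 on log2(TPM + 1).

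**Figure D5:**
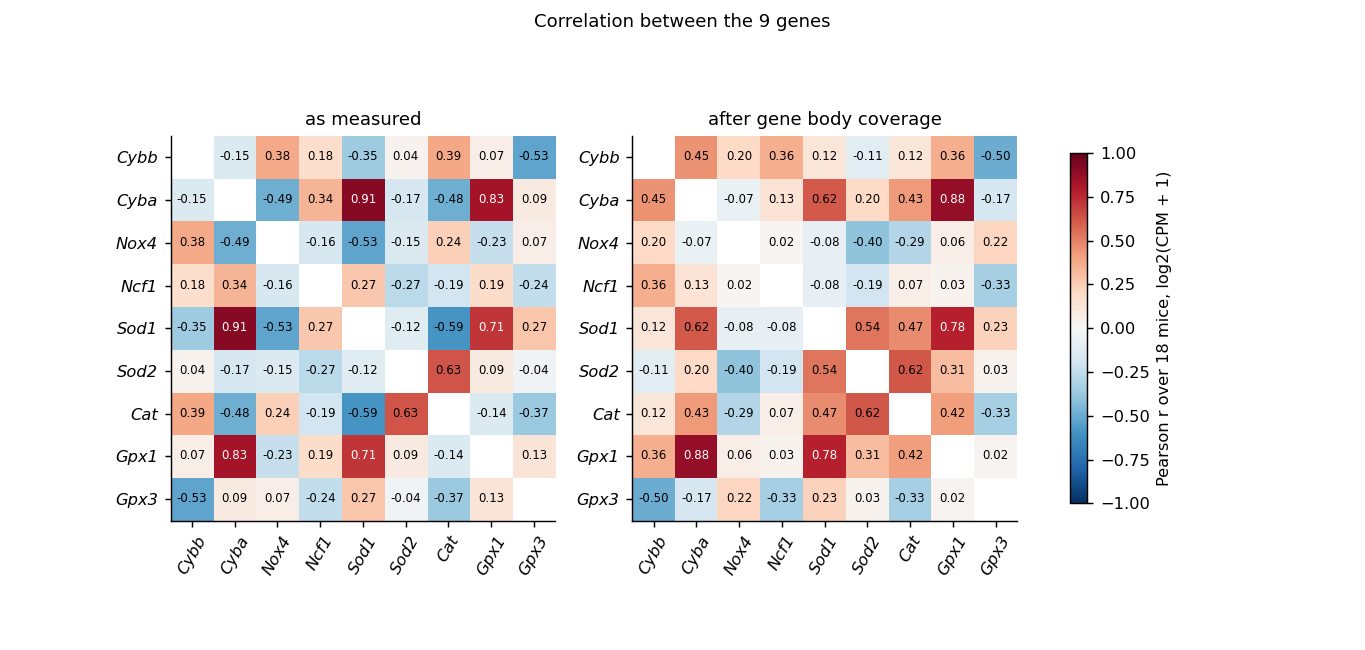
Pearson r between the 9 genes over 18 mice in log2(CPM + 1), as measured (left) and after a linear model with gene body coverage (right), on a colour scale from −1 to 1. *Cyba*, *Sod1* and *Gpx1* are the darkest pairs on the left (0.71 to 0.91), and on the right *Cyba* with *Sod1* falls to 0.62.

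For each gene the 3 most similar of the 13040 expressed genes were listed by Pearson r over the 18 mice. *Sod1* lay closest to *Commd4* (r 0.98), *Zcrb1* (0.98) and *Eef1d* (0.98), and *Cyba* to *Naa10* (0.98), *Atp5mpl* (0.98) and *Ecscr* (0.98), all 6 of which had an r of 0.79 or more with gene body coverage. *Gpx1* lay closest to *Serpinb6a* (0.95), *S100a16* (0.95) and *Dph3* (0.95). *Cat* lay closest to *Nudt12* (0.94), *Atpaf1* (0.93) and *Slc25a12* (0.93), and *Sod2* to *Ndufaf1* (0.88), *Fbxw5* (0.85) and *4930453N24Rik* (0.84). The closest genes to *Cybb* were *Col8a1* (0.82), *Ctsc* (0.80) and *Itih5* (0.79), and those to *Ncf1* were *Zfp772* (0.79), *Hcls1* (0.78) and *Cgas* (0.76). *Nox4* was nearest to *Lrrc40* (0.84), *Nptn* (0.83) and *Reck* (0.82), and *Gpx3* to *P3h4* (0.86), *Stard10* (0.80) and *Sbk3* (0.80). *Sod1* was the 398th of these genes by r with *Cyba*, and *Cat* the 233rd by r with *Sod2*.

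The phagocyte oxidase genes are classically expressed in macrophages and neutrophils, so the genes were set beside the summed macrophage and leukocyte markers and the neutrophil markers (log2(CPM + 1), 18 mice). Their r was 0.50 for *Cybb*, 0.55 for *Cyba*, 0.33 for *Ncf1*, 0.77 for *Gpx1* and −0.17 for *Nox4*. With the summed neutrophil markers r was −0.02 for *Cybb*, 0.01 for *Cyba*, −0.29 for *Ncf1*, −0.13 for *Gpx1* and −0.50 for *Nox4*. *Cyba* had a higher r with the adipocyte (0.91), cardiomyocyte (0.67), atrial (0.61), erythrocyte (0.60) and lymphocyte (0.59) lists, and *Gpx1* had 0.75 with the adipocyte list (0.82 without the 2 farthest mice). After gene body coverage the r of *Cyba* with these 5 lists was 0.69, 0.21, 0.47, 0.54 and 0.23, and that of *Gpx1* with the adipocyte list 0.68. *Sod1* had 0.88 with the adipocyte, 0.79 with the cardiomyocyte and 0.60 with the atrial list (0.55, 0.54 and 0.51 after coverage), and 0.33 with the macrophage and leukocyte list. Only 2 of the 7 adipocyte genes reached a mean of 1 TPM, and most of their sum was *Fabp4* (623 TPM). Most of the atrial sum was *Nppa* (mean 680 TPM), against means of 47.9 TPM for *Myl7* and 39.8 TPM for *Myl4*. The adipocyte sum itself had an r of 0.82 with gene body coverage. For the macrophage and leukocyte markers, without the 2 mice farthest from their median, *Cybb* fell to 0.18 and *Gpx1* stayed at 0.73, and after gene body coverage *Cyba* reached 0.85, *Gpx1* 0.83 and *Cybb* 0.62. With the activated fibroblast markers (7 genes) *Cybb* had 0.40, or 0.635 without the 2 farthest mice and 0.52 after coverage. With the cardiac fibroblast markers (9 genes) these values were 0.33, 0.53 and 0.43, and with the liver markers −0.61, −0.32 and −0.53. The summed macrophage and leukocyte markers were 302 to 517 TPM in WT mice (median 418) and 302 to 461 TPM in WWP2Mut/Mut mice (median 390), and did not separate the genotypes (permutation p = 0.4205). *Sod2* had an r of −0.61 with the summed cardiac fibroblast markers (9 genes), and *Nox4* one of 0.44. The largest means in that list were *Gsn* (435 TPM) and *Dcn* (217 TPM). With the activated fibroblast markers (7 genes) r was −0.25 for *Sod2* and −0.02 for *Nox4*. Whether cell composition has a part in these values was not tested.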

How the data were processed

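Poly(A) RNA of the LV of 18 AngII-infused mice was sequenced with a directional kit. Per the labels and the study's methods, the authors aligned reads with STAR 2.5.2b and made expected counts and TPM with RSEM 1.2.31 against GRCm38 (Ensembl release 89), and removed ribosomal and mitochondrial genes before deposit, so that deposited TPM summed to 671770 to 826381.3. The authors also deposited a gene body coverage fraction, RNA concentration and lane for each mouse. The definition of the fraction is not given in the sources used here, and the absorbance ratios were not used.

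Expected counts (5.11% with any decimal other than 0) were rounded and genes with more than 1 count in total were tested with edgeR 4.0.16 (TMM, quasi-likelihood, lane and RNA concentration as covariates, R 4.3.3), with Benjamini-Hochberg adjustment over 24804 genes. Every p value named edgeR comes from a model across all genes, this one unless a left-out mouse or an added covariate is named. Standard errors were taken from the F statistic. DESeq2 1.42.0, limma 3.58.1 on log2(TPM + 1), other normalizations, filters, covariates and leaving out each mouse were alternatives, and the procedure was tested on simulated data. For TPM means the exact permutation test was two-sided and ran over 48620 divisions (smallest possible p 4.1e-05), unadjusted over the 9 genes. Correlations used log2(CPM + 1) with TMM factors over 13040 genes with a mean of at least 1 CPM. Beyond the 9 genes, those named were *Wwp2*, the redox genes of smallest p (up to 5 per direction), the 3 nearest genes by r and the marker lists. Some genes are named for their role in a family. The genes and lists were chosen with earlier results of these data known, and the family shares and the correlations after coverage, within genotype and within lane were added after the data were seen. Intervals are 95%.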

Additional observations from a re-analysis of the deposited data

Results flagged for a closer look

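Over 39 groups of 9 mice (1 gene in 1 genotype), 3 held a mouse whose gap to its nearest neighbour exceeded Dixon's critical value of 0.493 of the group's range, and chance alone gives about 1 in 20. *Ncf1* was 0.99 TPM in WT 16-1, with the next WT mouse at 1.67 TPM. *Gsta3* was 14.61 TPM in WT 45-1, with the next at 6.58 TPM. *Wwp2* was 3.0 TPM in WWP2Mut/Mut 52-1, with the next mutant at 1.9 TPM, still below the lowest WT mouse (3.83 TPM).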

How the results depend on the processing

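None of the 9 genes and none of the redox genes tested was called in any of 30 alternative fits, 18 of which left out 1 mouse. The main edgeR fit called 1 gene of 24804 (0.00403%). The smallest adjusted p of the 9 genes was 0.7167 (*Gpx1*, limma with the TPM filter). *Nox4* was below 0 in every fit that tested it; it was not tested with TPM above 1 in 2 mice. Other directions turned, in no case with an unadjusted p under 0.05 for the turned log2 fold change (edgeR, DESeq2 or limma). *Cybb* was 0.000334 with DESeq2, 0.000624 with RLE factors, 0.020 without covariates, 0.041 with lane alone and 0.057 with coverage added; *Cat* was 0.029, 0.044 and 0.071 in the last 3. *Cyba* was −0.036 with coverage and *Gpx1* 0.094 with liver markers added. The liver markers as a covariate also moved *Cybb* to −0.26, *Cat* to −0.25, *Sod1* to 0.30 and *Cyba* to 0.30 (edgeR adjusted p of at least 0.8183). By limma, *Cyba*, *Ncf1*, *Sod1*, *Sod2* and *Gpx3* were −0.020, −0.070, −0.019, −0.10 and −0.057 on log2(TPM + 1), with or without the filter, −0.021, −0.10, −0.019, −0.10 and −0.057 on log2(TPM + 0.1), and −0.026, −0.080, −0.025, −0.11 and −0.062 on TPM rescaled to one sum. Mean differences turned positive on CPM for *Cybb* (0.109), *Cyba* (1.00), *Ncf1* (0.301), *Sod1* (13.6), *Sod2* (16.8), *Cat* (4.01) and *Gpx3* (11.0). Leaving out 1 mouse gave −0.13 to 0.068 for *Cybb*, −0.0096 to 0.12 for *Sod2*, −0.16 to 0.074 for *Cat* and −0.093 to 0.077 for *Gpx1* on the log2 scale, and −11.13 to 1.382 TPM for *Gpx3*. Members with a permutation p under 0.05 numbered 0 to 1 (1, *Ncf1*, without WT 16-1). Pairs with an absolute r above 0.7 numbered 7 after genotype, lane and concentration and 5 on log2(TPM + 1), 4 without the 2 farthest mice and 2 after gene body coverage, against 3. The cause was not tested. Pathway genes under an unadjusted edgeR or limma p of 0.05 numbered 0 to 4. No mouse exceeded 10 times the median of the liver markers, so leaving out such mice gave no value. No paired analysis was possible because mice of the 2 genotypes share no replicate number. *Nox4* had the fewest counts (21 to 67), with an SE (0.20) between those of *Cybb* (0.19) and *Cyba* (0.23).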
